A study of Mus musculus with 8 samples.

Results

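The miR-29 family was examined in primary murine articular chondrocytes, the cartilage-forming cells of the joint surface, cultured with vehicle or with the inflammatory cytokine IL-1β, whose receptor signals through NF-κB. The family was taken by name: 7 mature miRNAs (mmu-miR-29a-3p, mmu-miR-29a-5p, mmu-miR-29b-3p, mmu-miR-29b-1-5p, mmu-miR-29b-2-5p, mmu-miR-29c-3p and mmu-miR-29c-5p) of the 1966 names in the count table, of which 1003 had at least 1 count. The cells were isolated from the femoral heads of wild-type mice aged 3 weeks, of a strain not given in the sources used here. In culture, 4 libraries' cells received vehicle and those of the other 4 libraries IL-1β (1 ng/ml, 24 h) before small RNA sequencing. Neither group carried a transgene or a deletion. The sources used here do not say whether cells of several animals were pooled or whether libraries of a group came from separate cultures, so the p-values measure the spread between these libraries, which may be technical.

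Mature miRNAs are excised from the 5p or 3p arm of a precursor hairpin and guide Argonaute proteins to messenger RNAs that pair with the seed (bases 2 to 8). The miR-29 family is best known for repressing messenger RNAs of the extracellular matrix, above all collagens, elastin and fibrillin, and for its loss in fibrotic tissue downstream of TGF-β. It also targets DNA methyltransferases. In muscle cells NF-κB has been described to repress miR-29 transcription, and in cartilage the family has been linked to the SOX9 program and to Wnt signaling.

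The 3p arms, which are the guide strands of the family, are shown first because they share their seed and differ in few other bases. The seed is in capitals, and the sequences are from RefSeq (GRCm38.p6), where all 7 members were matched.
miR-29a-3p: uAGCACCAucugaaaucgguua
miR-29b-3p: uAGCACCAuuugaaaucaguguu
miR-29c-3p: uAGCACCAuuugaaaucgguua

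Counted from 1 at the 5′ end, miR-29a-3p and miR-29c-3p, both 22 nt long, differed by the single substitution C10U. miR-29a-3p and the 23 nt miR-29b-3p differed by C10U, G18A, U21G and A22U. Of 1679 mature mouse miRNA names in the reference, 3 had this seed, and all 3 were miR-29 members, so no other mouse miRNA of that table shares it. The 4 seeds of the 5p arms, again in capitals, differed from it and from each other. These arms are shown because the 5p arms of miR-29b-1 and miR-29b-2 tell apart a pair of loci whose 3p arms are identical.
miR-29a-5p: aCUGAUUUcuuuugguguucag
miR-29b-1-5p: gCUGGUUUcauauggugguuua
miR-29b-2-5p: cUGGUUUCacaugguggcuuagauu
miR-29c-5p: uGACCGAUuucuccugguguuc

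The family is encoded by 4 hairpins in 2 clusters. Mir29a (chr6:31062660-31062747, minus strand) lay outside the annotated genes of GENCODE M21 (GRCm38), and Mir29b-1 (chr6:31063023-31063093, minus strand), 275 bases from it, lay in an exon of the long non-coding RNA gene Gm27019 on the same strand. Mir29b-2 (chr1:195037040-195037120, plus strand) and Mir29c (chr1:195037547-195037634, plus strand) were 426 bases apart, in exons of the non-coding transcript A330023F24Rik. Both chromosome 1 hairpins also overlapped an exon of Cd46, a complement regulator transcribed from the opposite strand. The Mir29a hairpin is printed with its arms in capitals, the 5p arm before the loop and the 3p arm after it, because nearly all counts of the family came from its 3p arm.
Mir29a: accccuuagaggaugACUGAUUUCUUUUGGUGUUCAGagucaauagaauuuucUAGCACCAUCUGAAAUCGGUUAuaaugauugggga

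Because the family is known for its collagen targets and messenger RNA was not analysed here, collagen transcripts were searched for the seed match. The heptamer TGGTGCT, the reverse complement of the shared seed, was searched on the transcript strand in the longest annotated 3′ untranslated region of each coding gene (GENCODE M21). It occurred in 25 of 44 collagen genes (56.8%), against 13.1% of all 21020 coding genes and 11.2% of the 5547 genes whose region was as long as that of the middle 50% of collagen genes. Per kilobase, there were 0.693 matches in collagen genes and 0.106 over all genes. Col5a1 held 4 matches and Col11a1 held 2, whereas Col1a1, Col2a1 and Col3a1 held 1 each. No heptamer was found in the annotated regions of Col1a2, Col9a2, Col9a3, Col10a1 and Col11a2, which says only that these letters are not in that window. A match is a description of sequence and not a measured site of repression.

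For Col2a1, the main collagen of cartilage, Col1a1, which marks fibroblast-like chondrocytes, and Col3a1, the matches are shown with the heptamer in capitals. They lie at chr15:97975681-97975702 (minus strand), chr11:94952524-94952545 (plus strand) and chr1:45348968-45348989 (plus strand, GRCm38), all in the 3′ untranslated region.
Col2a1: cgtgtcctacacaaTGGTGCTa
Col1a1: tgggaaggaatttcTGGTGCTa
Col3a1: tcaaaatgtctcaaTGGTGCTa

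The deposited values were whole numbers per mature miRNA and were taken as raw counts. Library totals ranged from 616475 to 1568367. Levels below are normalized CPM, that is, counts scaled to a common library total (CPM) after TMM normalization. A single count was worth 0.625 to 1.6 normalized CPM, and the 3 counts that an observed 0 allows were worth 1.87 to 4.80. These limits cover counting error only and, like all counting intervals below, hold only if the counts are uncorrected. The libraries carried the hallmark of cartilage cells: the arms of miR-140 and miR-455 took 15.6% to 16.8% of counts with vehicle and 12.4% to 15.3% with IL-1β. All 4 muscle markers had 0 counts. Of the 5 haematopoietic markers, miR-142a-3p, miR-223-3p and miR-451a had 0 counts, miR-142a-5p had 4 and miR-150-5p had 370, and together they took 0.00441% to 0.00638% of counts with vehicle and 0.00260% to 0.00471% with IL-1β. The 2 endothelial markers, miR-126a-3p with 8 counts and miR-126a-5p with 0, reached at most 0.000288% of counts in any library. The 6 epithelial markers had 0 (miR-200c-3p and miR-429-3p) to 13 counts (miR-205-5p) and reached at most 0.00101%. Of the 3 liver or serum markers, miR-122-5p had 0 counts, miR-194-5p 76 and miR-192-5p 514, and they took 0.00521% to 0.00714% with vehicle and 0.00714% to 0.0109% with IL-1β. IL-1β replicate 4 stood apart from the other libraries: leaving it out lowered the common biological coefficient of variation, the spread between libraries beyond counting error, from 0.114 to 0.0657.

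miR-29a-3p held nearly all of the family's counts. Over the 8 libraries it had 6123 of 6166 counts (99.3%), and the other 6 members together had 43. Its share of the family ranged from 99.1% to 99.8% in the vehicle libraries and from 98.4% to 99.7% in the IL-1β libraries. It was the 73rd most abundant of the 1003 miRNAs with counts, at ranks 68 to 86 within single libraries, and took 0.0769% of all counts. The plot of summed counts against rank places it near the top of the curve and the other members on the tail.

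**Figure D1:**
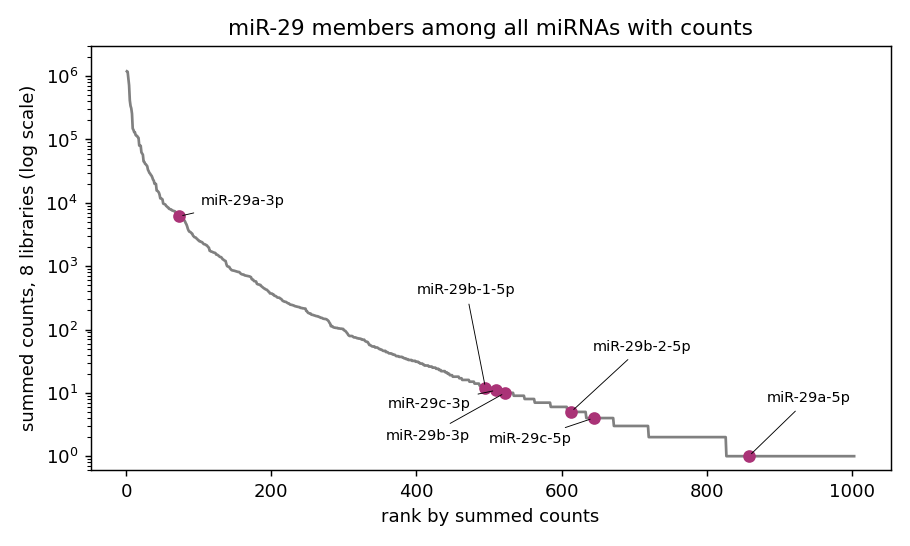
Summed counts over the 8 libraries (log scale) against rank for the 1003 miRNAs with at least 1 count (grey line). The 7 miR-29 members are the labelled points: miR-29a-3p at 6123 counts, and the other 6 at 1 to 12 counts each.

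The other guide strands were scarce. miR-29c-3p, which differs from miR-29a-3p in 1 base, had 11 counts in all, and miR-29b-3p had 10. By counts, miR-29a-3p exceeded miR-29c-3p by 557-fold (95% exact interval 311 to 1116, counting error only) and miR-29b-3p by 612-fold (333 to 1278). These mature forms are 22 or 23 nt long, so length hardly enters the comparison, but the ligation steps of small RNA libraries favor some sequences, and ratios of counts are not ratios of molecules. Their base composition was 40.9% G and C for miR-29a-3p, 36.4% for miR-29c-3p and 34.8% for miR-29b-3p. Among all 171 names matched to a sequence with at most 36.4% G and C, 21 (12.3%) had at least 50 counts, led by let-7a-5p at 40665, and of 1504 names above that content 295 (19.6%) did. The part of base composition in the low counts was not tested.

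miR-29b-3p is encoded at 2 loci, and its listed length of 46 nt is the sum of both. How reads that fit several loci were counted was not given in the sources used here. Of 53 names with at least 2 loci in the RefSeq table used, which may lack some loci, 22 had 0 counts, 31 had counts and 20 had at least 50. Among them were miR-92a-3p with 918339 counts, and both arms of miR-199a, which has 2 loci in that table, with 9740 counts for miR-199a-5p and 0 for miR-199a-3p. miR-29b-3p stood 24th among the 53. The single-locus 5p arms of the same hairpins were as sparse as the shared 3p arm, with 12 counts for miR-29b-1-5p and 5 for miR-29b-2-5p. miR-29c-3p, also sparse, has 1 locus. What set these counts low was not tested.

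From the Mir29a hairpin the 3p arm gave 6123 counts and the 5p arm 1, so that 99.98% of its counts were 3p. This was among the more one-sided hairpins of the table. Of 81 hairpins with at least 1000 counts, both arms named and no further locus in the names or the reference, the median share of the leading arm was 99.03% (lowest 51.8%), 41 had over 99%, and Mir29a stood 8th. A minor arm of 0 or 1 count, as for miR-29a-5p, was seen in 9 of the 81. Whether IL-1β changed the ratio of the arms or of the 2 clusters was not tested, because every ratio within the family had under 3 counts on one side in at least 1 library.

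To ask whether IL-1β altered the family, the level of miR-29a-3p was compared between the groups. It was 689, 739, 822 and 754 normalized CPM in vehicle replicates 1 to 4. The IL-1β libraries, in the same order, were at 864, 791, 849 and 634. The groups overlapped, and IL-1β replicate 4 was the lowest of all 8 libraries whereas replicates 1 and 3 were the highest. These values rest on 484 to 1315 counts, which give a relative counting error of 2.76% to 4.55%. The vehicle libraries averaged 751 ± 54.6 and the IL-1β libraries 785 ± 105 (SD, n = 4).

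Neither miR-29a-3p nor any other tested member was called, which needed an adjusted p under 0.05 (edgeR's quasi-likelihood test, Benjamini-Hochberg over all miRNAs tested) and an absolute log2 fold change over 0.3. The log2 fold change of miR-29a-3p was 0.06 (SE 0.0976, edgeR adjusted p = 0.871), a fold of 1.04 with a 95% interval of 0.907 to 1.20. A rise of more than 1.20-fold and a fall below 0.907 of the vehicle level thus lay outside the interval. Of 564 miRNAs tested, 11 (1.95%) were called, 8 higher and 3 lower, and of the 4 miR-29 members among the 564, 0 were called and 0 had an unadjusted p under 0.05 in edgeR, against 63 (11.2%) of the 564. DESeq2 also called 0. With these backgrounds, a count of 0 among 4 says little about the family as a group. Fewer cells of a kind and less RNA per cell cannot be told apart in such bulk libraries.

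**Figure D2:**
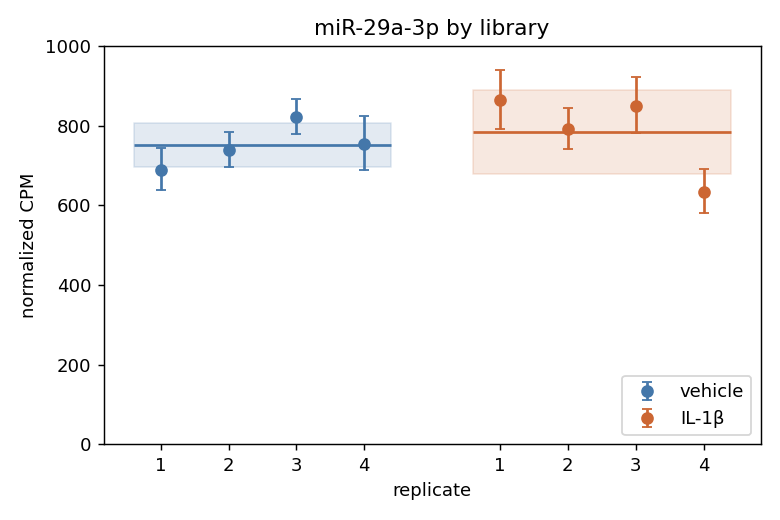
Normalized CPM of miR-29a-3p (y axis, from 0) in vehicle replicates 1 to 4 (blue) and IL-1β replicates 1 to 4 (orange). Error bars are 95% exact Poisson intervals of the counts, lines are group means and bands are ± 1 SD; the groups overlap, with IL-1β replicate 4 lowest at 634.

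Single libraries moved the small change of miR-29a-3p, and IL-1β replicate 4 moved it most. On the log2 scale this library deviated by -0.40 from the mean of the other 3 IL-1β libraries, while the deviations of the other 7 libraries lay between -0.16 and 0.20. Without it the IL-1β mean was 835 ± 38.3 normalized CPM (SD, n = 3), a ratio of means of 1.11, and the log2 fold change was 0.15 with an edgeR adjusted p of 0.410. Leaving out another library lowered the log2 fold change to 0.0095 (IL-1β replicate 3), 0.015 (IL-1β replicate 1), 0.021 (vehicle replicate 1), 0.025 (IL-1β replicate 2), 0.034 (vehicle replicate 4) or 0.053 (vehicle replicate 2), or raised it to 0.11 (vehicle replicate 3). Without IL-1β replicate 4 the groups still overlapped, since the lowest remaining IL-1β library was at 791 and the highest vehicle library at 822. Over all 16 alternative settings the log2 fold change of miR-29a-3p lay between 0.01 and 0.15, on the side of a rise in each, with an edgeR or DESeq2 adjusted p of 0.410 to 0.982, and 0 of the 16 called it. In IL-1β replicate 4 the chondrocyte markers were at their lowest (12.4% of counts) and the liver or serum markers at their highest (0.0109%). Their part in the level of miR-29a-3p was not tested.

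The sum of the 3p arms, which share the seed and so the predicted targets, was nearly all miR-29a-3p. It came to 0.0761% ± 0.00589 of library counts with vehicle (SD, n = 4, range 0.0702% to 0.0840%). With IL-1β it came to 0.0783% ± 0.0131 (SD, n = 4, range 0.0591% to 0.0881%). The range of the vehicle libraries lay within that of the IL-1β libraries.

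The 6 remaining members were near the limit of detection, and 26 of their 48 values were 0 counts. None exceeded 5 counts in a library. miR-29b-1-5p, the 5p arm of the hairpin next to Mir29a, had 0, 1, 2 and 0 counts in vehicle replicates 1 to 4 and 3, 0, 1 and 5 in IL-1β replicates 1 to 4. Its 9 counts with IL-1β against 3 with vehicle corresponded to a ratio of 4.21 per library total (95% exact interval 1.05 to 24.2, counting error only). The libraries overlapped, 8 of the 9 IL-1β counts came from replicates 1 and 4, and the edgeR test, which includes the spread between libraries, gave an adjusted p of 0.518. Single libraries moved this ratio, to 2.52 without IL-1β replicate 4 (interval 0.427 to 17.2), 6.43 without IL-1β replicate 2 and 8.36 without vehicle replicate 3. Over the 10 alternatives with an adjusted p, that p lay between 0.224 and 0.731.

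miR-29b-3p, the guide strand shared by both miR-29b hairpins, had 1, 3, 0 and 0 counts with vehicle and 2, 3, 1 and 0 with IL-1β. The ratio of its 6 to 4 counts per library total was 2.10 (95% exact interval 0.499 to 10.1, counting error only), and the edgeR adjusted p was 0.760. The ratio was 5.67 without vehicle replicate 2, which held 3 of the 4 vehicle counts, and 1.39 without vehicle replicate 3. For miR-29c-3p, the guide strand of the chromosome 1 cluster, the counts were 2, 3, 3 and 0 with vehicle and 1, 2, 0 and 0 with IL-1β. Here the ratio of 3 to 8 counts was 0.526 (0.0899 to 2.19), and the edgeR adjusted p was 0.794. Without IL-1β replicate 2, which held 2 of the 3 IL-1β counts, the ratio was 0.268. Both intervals over all libraries include equal levels as well as a 2-fold lower level, so a change of that size was not detectable at this depth.

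The other 3 members did not exceed 1 CPM in at least 4 libraries and were not tested. miR-29b-2-5p had 1, 1, 0 and 0 counts with vehicle and 0, 0, 0 and 3 with IL-1β. miR-29c-5p had 2, 0, 0 and 1 with vehicle and 0, 1, 0 and 0 with IL-1β. miR-29a-5p had 0 counts in all 4 vehicle libraries, which allows up to 0.646 CPM over the group, and 1 count in IL-1β replicate 2. No fold is given for these 3, as neither group exceeded 3 counts.

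**Figure D3:**
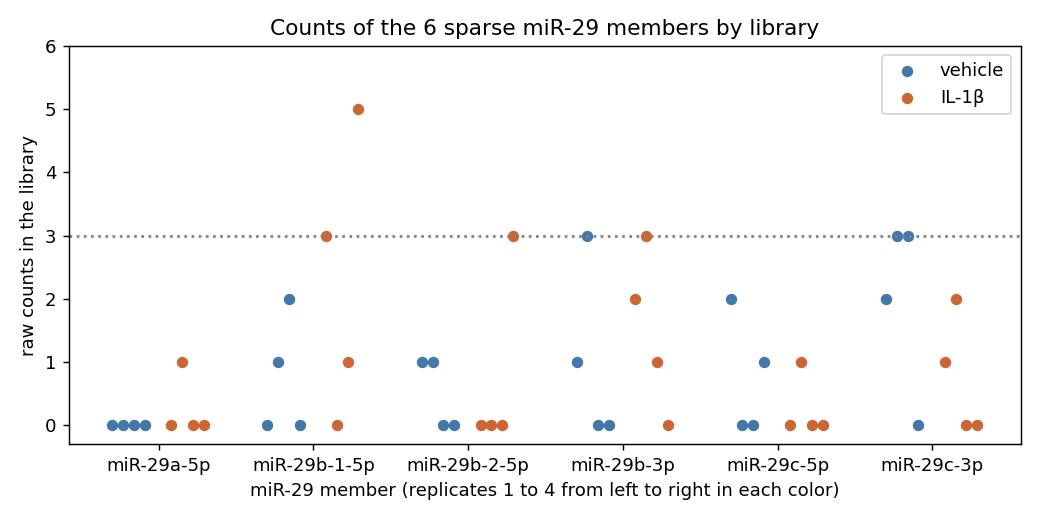
Raw counts (y axis) of the 6 sparse miR-29 members (x axis) in the vehicle (blue) and IL-1β (orange) libraries, 1 point per library, replicates 1 to 4 from left to right. The dotted line marks 3 counts, the number that an observed 0 allows; 1 of the 48 values, miR-29b-1-5p in IL-1β replicate 4, lies above it at 5.

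miR-29a-3p was set beside a list of 23 other miRNAs linked to cartilage matrix or fibrosis. Of these, 19 were tested and 1 was called (5.26%, against 1.95% of all miRNAs tested, both directions counted in each share). The 1 called rose, 0 fell and 18 were not past the threshold. The median log2 fold change was -0.02 over the list and 0.01 over all miRNAs tested. The one called was miR-21a-5p, an inflammation-responsive miRNA with a role in fibrosis, which rose from 355 ± 24.4 to 597 ± 92.9 normalized CPM (SD, n = 4). Its log2 fold change was 0.75 with a 95% interval of 0.53 to 0.96 (edgeR adjusted p = 3.58e-05). This interval and that of miR-29a-3p (-0.14 to 0.26) did not overlap, although the difference itself was not tested. By mean level, 9 of the 23 lay above miR-29a-3p.

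The 4 other list members with the largest changes were not past the threshold. miR-101a-3p was at 22.5 ± 2.60 normalized CPM in the vehicle group and 33.7 ± 14.1 in the IL-1β group (SD, n = 4), a log2 fold change of 0.61 with an edgeR adjusted p of 0.299. Without IL-1β replicate 4 it was called, at a log2 fold change of 0.83 and an edgeR adjusted p of 0.0242, whereas without IL-1β replicate 2 the log2 fold change was 0.35 (edgeR adjusted p = 0.668). miR-192-5p, also on the list of liver or serum markers, was at 52.2 ± 9.14 and 78.4 ± 18.4 (0.54, edgeR adjusted p = 0.115). The arms of miR-455, an intronic miRNA of Col27a1, had log2 fold changes of -0.35 for the 3p arm and -0.23 for the 5p arm (edgeR adjusted p = 0.0691 and 0.753). The value of the 5p arm was -0.07 without IL-1β replicate 4, -0.45 without IL-1β replicate 2 and -0.36 without vehicle replicate 2, and it was not called in any of these. The 3p arm was called under 4 of the 16 alternatives, namely without IL-1β replicate 2 (-0.47, edgeR adjusted p = 0.0150), with no filter (-0.36, 0.00175), with the replicate number as a block (-0.37, 0.0155) and with 1 factor of unwanted variation (-0.37, 2.57e-05). That factor also led to a call of miR-192-5p (0.51, edgeR adjusted p = 0.0176). For miR-140-3p, the cartilage hallmark, the log2 fold change was -0.15 (edgeR adjusted p = 0.546).

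**Figure D4:**
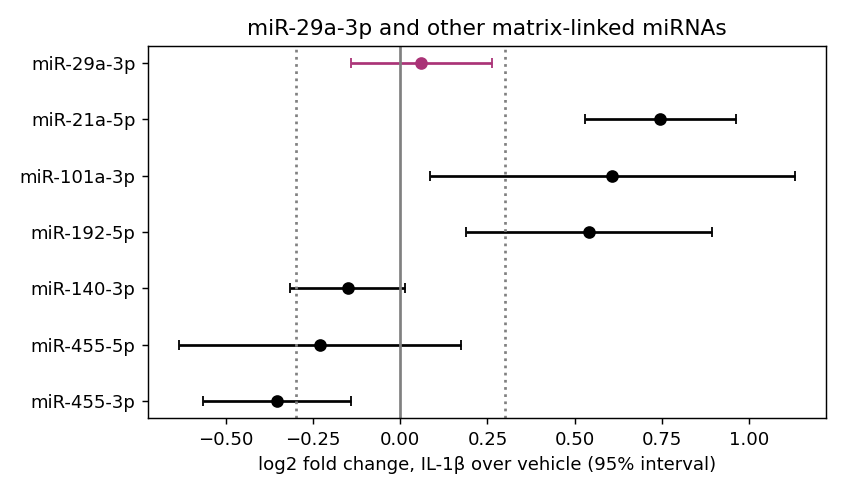
Log2 fold change (IL-1β over vehicle, points) with 95% intervals (bars) from edgeR for miR-29a-3p (magenta) and 6 other miRNAs linked to cartilage matrix or fibrosis (black). Dotted lines mark a log2 fold change of 0.3 in either direction; miR-29a-3p lies at 0.06 with its interval inside them, and miR-21a-5p lies at 0.75.

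The libraries in which miR-29a-3p was high or low were compared with those of other abundant miRNAs. Among 194 miRNAs averaging 50 counts or more per library, those most like it over the 8 libraries were miR-674-3p, miR-673-5p and miR-433-3p. Pearson correlations of log2 levels were 0.93, 0.81 and 0.76, and Spearman correlations 0.76, 0.76 and 0.50, whereas the median Pearson correlation over the 194 was -0.05. The 8 points share their library and its scaling. Without IL-1β replicate 4 the Pearson correlations were 0.88, 0.57 and 0.42, so that the latter pair rested largely on that library. miR-674-3p was at 288, 304, 326 and 302 normalized CPM in vehicle replicates 1 to 4 and at 317, 321, 320 and 285 in IL-1β replicates 1 to 4. As with miR-29a-3p, its lowest library was IL-1β replicate 4, and its groups overlapped (log2 fold change 0.02, edgeR adjusted p = 0.989).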

How the data were processed

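The authors deposited 1 table of counts, by mature miRNA name, for 8 libraries. It was made by trimming with cutadapt, aligning to mm10 with STAR at default settings and counting with featureCounts. The submitters' processing notes name STAR 2.4.2a, and the paper's methods name another version. Strand use and the treatment of reads with several loci are not given in the sources used here. Batch correction with RUVseq was described. The columns were taken as uncorrected because they were whole numbers, which does not settle the question. The counting intervals rest on this assumption. A length per name was listed and summed over loci.

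Groups came from the sample titles. The miR-29 members were taken by name, and the members and lists were chosen with earlier results of these data known. Counts were tested with edgeR 4.0.16 in R 4.3.3 (robust quasi-likelihood test, two-sided, TMM scaling) on miRNAs over 1 CPM in at least 4 of the 8 libraries, and a call needed an adjusted p under 0.05 and an absolute log2 fold change over 0.3, the limits stated in the study's results. The SE was the absolute log2 fold change divided by the square root of F, and 95% intervals used the t distribution. DESeq2 1.42.0 was an alternative. The fit was tested on simulated counts. Intervals of counts were exact (SciPy 1.17.1). Besides the 7 members, the miRNAs named were those called on the list of matrix and fibrosis miRNAs, the 4 others of it with the largest change, miR-140-3p, the markers and the 3 most like miR-29a-3p; let-7a-5p, miR-92a-3p and miR-199a were chosen after their values were seen. Alternatives covered scaling, filters, test, unwanted variation, a replicate block and each library left out.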

Additional observations from a re-analysis of the deposited data

Results flagged for a closer look

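Of 22 groups of 4 libraries examined, 2 held a library far from the other 3, its gap to the nearest, as a part of the range, passing Dixon's 95% critical value; chance gives such a gap in about 1 of 20 groups. miR-674-3p was at 284.5 normalized CPM in IL-1β replicate 4 against 316.7 to 321.1 in the other IL-1β libraries. It was picked for its likeness to miR-29a-3p, which was itself lowest in that library, so the rate of 1 in 20 does not apply to it. miR-455-3p was at 5584.8 normalized CPM in vehicle replicate 1 against 5053.3 to 5080.4. For miR-29a-3p in IL-1β replicate 4 the gap took 0.685 of the range, which did not pass this limit.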

How the results depend on the processing

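The number of miR-29 members called was 0 under all 16 alternatives. The fitted log2 fold change of miR-29a-3p kept its direction in each. The ratio of its summed counts per library total did not when single libraries were left out. The number of miRNAs called was 11 in the reported fit, 28 with 1 factor of unwanted variation, and 6 to 19 when single libraries were left out (6 without vehicle replicate 4, 7 without vehicle replicate 2 or IL-1β replicate 3, 19 without IL-1β replicate 4). With the replicate number as a block it was 19. Same-numbered libraries did not deviate together (correlations 0.17, -0.35, 0.10 and -0.18 over 195 miRNAs), and not every library correlated best with its own number. Such correlations cannot show whether a shared number stands for shared animals or cultures, which the sources used here do not state. On the matrix and fibrosis list, 1 member was called, 2 with no filter, 2 with the replicate block, 3 with the factor of unwanted variation, and 1 to 2 without single libraries. The second was miR-455-3p, except without IL-1β replicate 4, where it was miR-101a-3p, and the third was miR-192-5p. Without the 10 most abundant miRNAs in the denominator the share of the 3p arms was 0.2615% (vehicle) and 0.2622% (IL-1β). For the sparse members DESeq2 gave no adjusted p. The planned tests of ratios within the family were not run, since the counts were too few. Causes of these shifts were not tested. Depth limits every statement on the 6 sparse members.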
